A study of Homo sapiens with 18 samples.

Results

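T47D, an established cell line from a human breast carcinoma that is rich in progesterone receptor, was given 0.1 nM R5020 for 18 h, and the accessibility of its chromatin was set against that of T47D cells given the vehicle for the same time. R5020 is promegestone, a synthetic progestin. The comparison takes the 3 libraries labelled 18 h and 100 pM (0.1 nM) and the 3 labelled 18 h and vehicle, 6 of the 18 libraries of the series, over the whole list of 132604 hg19 regions, of which 132304 could be tested. The remaining groups, each of 3 libraries, are 10 nM R5020 at 18 h and, at 6 h, vehicle, 0.1 nM R5020 and 10 nM R5020. Cells of every group were first starved in medium with very little charcoal-stripped serum and no phenol red, so that the baseline is a culture low in steroid and growth factors, and the vehicle was DMSO. The question named in the title of the series is how breast cancer cells respond to different progestin levels.

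The progesterone receptor is a transcription factor that a progestin switches on. The hormone-bound receptor attaches to short response elements in DNA, mostly in enhancers far from promoters, and recruits coregulators and chromatin remodellers, after which nucleosomes at such an element can move aside or close in. In Omni-ATAC-seq the Tn5 transposase cuts DNA that is not wrapped in nucleosomes and leaves sequencing adapters there, so that the read count of a region follows how open it is. A region with more reads is called a gain below and a region with fewer a loss. Regions are given by their hg19 chromosome, start and end. Genes, motifs and sequences were not analysed here, because the annotation at hand is of another build.

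After 18 h of 0.1 nM R5020, 2307 of the tested regions had gained accessibility over vehicle (1.74%) and 923 had lost it (0.698%), so that gains made up 71.4% of the 3230 regions called at an adjusted p under 0.05 (edgeR quasi-likelihood test). The median gain had a log2 fold change of 1.38, and 1935 gains were at least 2-fold, 368 at least 4-fold and 43 at least 8-fold. Among losses the median was -1.35, with 773 at least 2-fold, 90 at least 4-fold and 4 at least 8-fold. Gained regions held a median of 6.86 CPM (counts relative to library size, scaled as edgeR's cpm function does) with 0.1 nM and 2.63 CPM with vehicle, while lost regions held a median of 2.73 CPM with 0.1 nM and 6.90 CPM with vehicle. Over all regions tested the median log2 fold change was -0.006. The 0.1 nM and vehicle libraries did not overlap at 2295 of the gains and 922 of the losses, beside 16.4% of all regions tested; these libraries chose the calls, so that count is a description.

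Leaving out single libraries moved these counts by over 1.5 times. All 3230 regions had the same sign and an unadjusted p under 0.05 (edgeR) in each of the 6 fits that lacked a library. Those fits keep most of the libraries that chose the regions, so this is a description. Gains numbered 1018 without replicate 1 of 0.1 nM, 960 without replicate 1 of vehicle and 1116 without replicate 2 of vehicle. Losses numbered 545, 398 and 603 without replicates 1, 2 and 3 of 0.1 nM, and 336 and 482 without replicates 1 and 2 of vehicle. The regions called in the full fit and in all 6 of these were 781 gains, 33.9% of the gains, and 258 losses, 28% of the losses. Since no label ties the 3 libraries of a group to separate cultures, the p-values rest on library-to-library spread, part of which may be technical.

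Read depth differed between the libraries compared: 8865035 to 30593974 counts in regions with 0.1 nM and 15735470 to 25588387 with vehicle. The SD of log2 CPM between the libraries of a group was 0.42 for the median region with 0.1 nM and 0.31 with vehicle. The 5000 strongest regions of each library held 39.9%, 37.0% and 34.5% of the counts in the 0.1 nM libraries, and 40.3%, 38.7% and 36.5% in the vehicle libraries. These shares overlapped between the groups. A fit with the share as a covariate called 4637 gains and 1730 losses. Counts were simulated with the depths and number of these libraries and the fit's estimate of spread. The regions to change were drawn only from those above a set CPM in the vehicle cells of 18 h, so weaker regions are not covered. The test called 81 of 100 regions changed 4-fold and 11 of 100 changed 2-fold. Only those regions were changed among 128742, whereas the data held 3230 calls. The adjusted threshold was therefore stricter in the simulation, and its shares are not the shares found in the data.

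Gains and losses were spread differently over the range of openness, with overlap. All regions tested were ranked by their CPM, not divided by width, in the vehicle cells of 6 h, which lie outside the contrast. In 5 classes of equal size by that rank, the percent gained was 1.04, 1.65, 2.24, 2.51 and 1.28 from the least to the most open class. Losses made up 0.00756%, 0.0642%, 0.306%, 1.35% and 1.76% of the same classes. Gains were thus most frequent in the class from 2.98 to 7.77 CPM, and losses in the class above it, which held 467 losses and 340 gains. The least open class reached only 0.729 CPM, where a fall has few reads to show. The part of that limit in the counts of losses was not tested. The median log2 fold change of all regions in a class fell from class to class, with 0.27 in the least open and -0.17 in the most open one, while the percent gained rose over the first 4 classes. The part of this shift in the calls was not tested. Wider regions were called more often: among 5 classes by width, gains were 0.506% of the narrowest and 2.15% of the widest, with a peak of 2.88% in the class before it, and losses 0.102% of the narrowest and 1.60% of the widest. The median width was 520 bp for gains, 691 bp for losses and 387 bp for all regions tested.

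The largest gains were sites with few reads in vehicle cells. At chr6:137368175-137368532, 357 bp wide, the libraries held 7.98, 3.94 and 3.79 CPM with 0.1 nM, against 0.216, 0.412 and 0.471 CPM with vehicle. Every 0.1 nM library lay far above every vehicle library, a log2 fold change of 3.89 (SE 0.43, edgeR adjusted p = 2.54e-05). At chr1:110391512-110392485 the 0.1 nM libraries held 24.5, 20.3 and 16.9 CPM, against 1.16, 1.29 and 1.77 CPM with vehicle, and this 14.7-fold gain had the lowest adjusted p of the 12 largest, 2.91e-08 by edgeR. Another site of chromosome 1, chr1:86000211-86000723, held 19.4, 8.64 and 6.81 CPM with 0.1 nM and 0.474, 0.412 and 1.59 CPM with vehicle, a 14.8-fold gain. There the 0.1 nM libraries spread widely, with replicate 1 above the others, but none reached the vehicle range.

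Of the 12 largest gains, chr11:114049528-114050627 held the most reads with 0.1 nM, in levels not divided by width, and was the widest, at 1099 bp. It held 42.0, 30.2 and 31.4 CPM with 0.1 nM and 2.80, 2.78 and 4.36 CPM with vehicle, 10.5-fold (edgeR adjusted p = 4.85e-06). Next stood chr8:124417554-124418344, with 33.6, 23.4 and 29.7 CPM with 0.1 nM, against 1.85, 2.01 and 3.65 CPM with vehicle, 11.7-fold. At both sites every 0.1 nM library held several times the reads of any vehicle library. On chromosome 7, chr7:47831300-47831783 held 35.0, 25.2 and 19.3 CPM with 0.1 nM and 2.46, 2.47 and 3.60 CPM with vehicle, 9.41-fold. The 12 gains ran from 9.41-fold to 14.8-fold and from 344 to 1099 bp, lay on 9 chromosomes, and were all called at 6 h too.

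The largest losses were sites that kept few reads with 0.1 nM. At chr1:191122047-191123063, 1016 bp wide, the libraries held 0.895, 1.52 and 1.36 CPM with 0.1 nM, against 25.7, 11.8 and 9.84 CPM with vehicle. The vehicle libraries differed among themselves by more than the 0.1 nM libraries did, yet the groups were well apart, with a log2 fold change of -3.70 (SE 0.48, edgeR adjusted p = 0.000143). At chr14:37747878-37748632 the levels were 1.43, 1.04 and 0.194 CPM with 0.1 nM and 15.7, 12.5 and 8.66 CPM with vehicle, 12.3-fold lower. A pair of these losses lay on chromosome 5 within one stretch. In that pair chr5:117345299-117346389 had 3.33, 2.76 and 3.60 CPM with 0.1 nM and 26.6, 19.9 and 21.5 CPM with vehicle, the lowest adjusted p of the 12 (1.87e-06, edgeR), and chr5:117474811-117475813 had 1.04, 0.829 and 1.85 CPM with 0.1 nM and 8.36, 6.53 and 8.07 CPM with vehicle. The 12 losses ran from 5.71-fold to 13-fold and from 482 to 1090 bp, on 8 chromosomes. The loss at chr20:18580033-18580724 had 1.25, 1.04 and 2.82 CPM with 0.1 nM and 13.8, 7.15 and 6.84 CPM with vehicle, and missed the threshold without replicate 1 of 0.1 nM (adjusted p = 0.0502, edgeR) or replicate 1 of vehicle (0.0599).

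**Figure D1:**
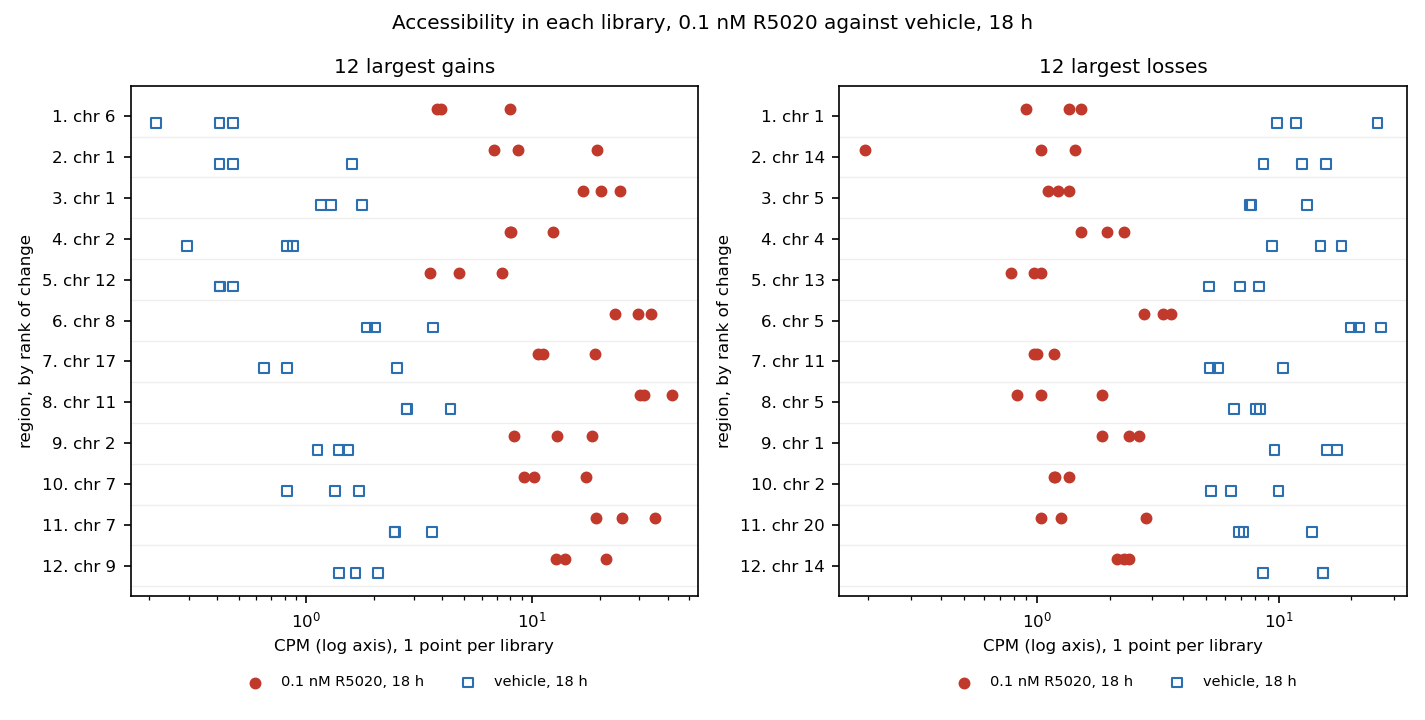
CPM in each library (log axis, 1 point per library) of the 12 largest gains and the 12 largest losses, with 0.1 nM R5020 above vehicle in each row and the regions in rank order. No point of one group falls within the range of the other, as the rule for these regions required, and the gains sit at 3.52 to 42.0 CPM with 0.1 nM.

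Regions that carried many reads, in levels not divided by width, changed by smaller factors. The called gain with the most reads was chr6:35693527-35696254, 2727 bp wide, where the libraries held 166, 123 and 122 CPM with 0.1 nM and 47.7, 45.8 and 51.4 CPM with vehicle, 2.84-fold (edgeR adjusted p = 0.000391). Broad gains of this kind also lay on chromosomes 11 and 14: chr11:34675338-34677086 held 129, 95.2 and 64.3 CPM with 0.1 nM against 43.0, 37.0 and 30.6 CPM with vehicle, and chr14:95805655-95807231 held 117, 84.0 and 80.1 CPM with 0.1 nM against 38.6, 42.1 and 43.0 CPM with vehicle. All 3 regions had groups that did not overlap. The loss with the most reads in vehicle cells was chr20:52480655-52483422, where 2767 bp held 32.4, 31.7 and 27.0 CPM with 0.1 nM and 101, 77.9 and 80.7 CPM with vehicle, 2.85-fold lower (edgeR adjusted p = 0.000223). The smallest of these changes were not firm. The gain at chr11:62267002-62268285, with 127, 112 and 87.9 CPM with 0.1 nM and 63.9, 62.4 and 58.8 CPM with vehicle, missed the threshold without any 1 of 5 libraries (adjusted p from 0.144 to 0.174, edgeR), and the loss at chr3:193429765-193430626, with 46.3, 48.5 and 46.5 CPM with 0.1 nM and 68.3, 81.8 and 73.1 CPM with vehicle, missed it without any 1 of the 6 (0.0962 to 0.222).

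The response at 18 h was then set beside 0.1 nM and vehicle cells of 6 h, which are separate libraries that share with it the fit's estimate of spread. At 6 h, 1256 regions were called gained (0.949% of those tested) and 319 lost (0.241%). Of the 2307 gains of 18 h, 2267 (98.3%) were also higher with 0.1 nM than with vehicle at 6 h, with a median log2 fold change of 0.93, whereas 45.5% of all regions tested were higher and their median was -0.04. Of the 923 losses, 911 (98.7%) were also lower at 6 h, with a median of -0.86. The 6 h libraries of 0.1 nM and vehicle did not overlap, in the direction of the 18 h call, at 1732 gains (75.1%) and 696 losses (75.4%). Over all regions tested 13.6% did not overlap in either direction, 6.91% upward and 6.67% downward.

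Called at both times were 887 gains, which is 38.4% of the gains of 18 h and 70.6% of those of 6 h, and 231 losses, 25% of the losses of 18 h and 72.4% of those of 6 h. No region called at 18 h was called in the opposite direction at 6 h. Gains called at 18 h but not at 6 h numbered 1420. Their median log2 fold change at 6 h was 0.65, and 848 of them (59.7%) had an unadjusted p under 0.05 in the same direction at 6 h, beside 5.06% of all regions tested. Losses called at 18 h but not at 6 h numbered 692, with a median of -0.73 at 6 h and 480 (69.4%) with such a p, beside 3.77% of all regions. In turn, 369 gains and 88 losses called at 6 h were not called at 18 h, with median log2 fold changes at 18 h of 0.74 and -0.72. The counts at both times moved by over 1.5 times without some libraries: gains to 521 without replicate 1 of 0.1 nM at 6 h, 553 without replicate 1 of vehicle at 18 h, and 542 and 480 without replicates 1 and 2 of vehicle at 6 h. Losses called at both times were 147 and 134 without replicate 2 of 0.1 nM and replicate 1 of vehicle at 18 h. Leaving out 6 h libraries gave 74, 106 and 124 such losses without replicates 1, 2 and 3 of 0.1 nM, and 65 and 84 without replicates 1 and 2 of vehicle.

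**Figure D2:**
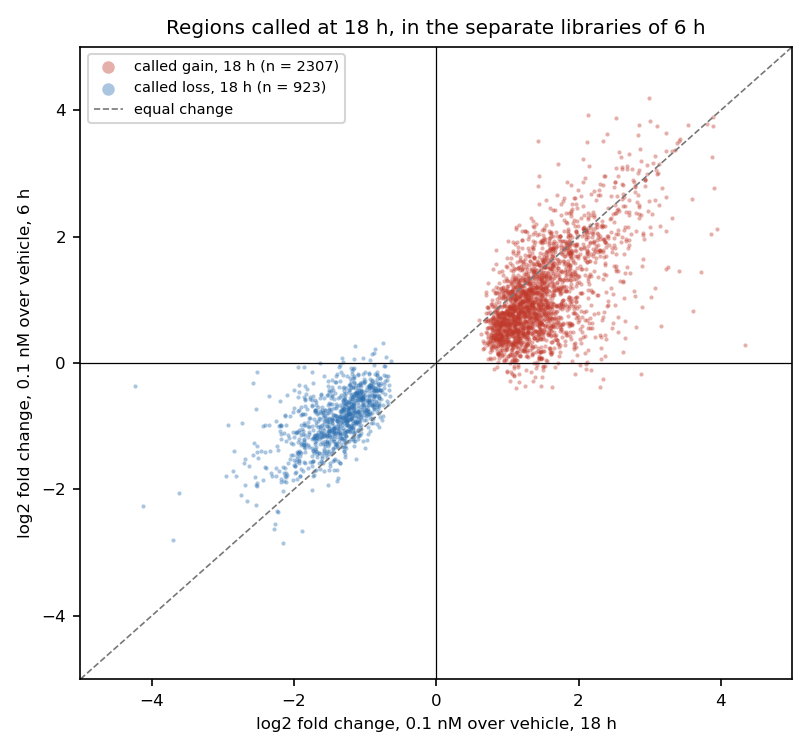
Log2 fold change of 0.1 nM over vehicle at 18 h (x axis) and in the separate libraries of 6 h (y axis) for the 2307 gains and 923 losses called at 18 h. Of these, 2267 gains lie above 0 at 6 h and 911 losses below 0. The dashed line marks equal change.

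No region passed the test of a difference between the 18 h response and the 6 h response to 0.1 nM (edgeR, 0 called and 3352 with an unadjusted p under 0.05; DESeq2, 0 called and 3330 with such a p). Calls at one time only are therefore not shown to differ between the times. An unadjusted p under 0.05 in that test was held by 449 gains of 18 h (19.5%) and 169 losses (18.3%), beside 2.53% of all regions tested. The 18 h libraries that chose these regions enter the test, so the shares are a description. Sites held at one level were among the largest gains: chr8:124417554-124418344 had 29.2, 24.2 and 30.0 CPM with 0.1 nM at 6 h, against 1.16, 2.03 and 2.83 CPM with vehicle, close to its values of 18 h. Likewise chr11:114049528-114050627 had 44.3, 33.3 and 42.3 CPM with 0.1 nM at 6 h and 2.00, 2.39 and 6.48 CPM with vehicle.

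Among gains with an average log2 CPM of 1 or more, the 18 h response exceeded the 6 h response by the most at chr12:45614258-45614449, a narrow region of 191 bp. It held 4.40, 3.87 and 3.21 CPM with 0.1 nM at 18 h and 0.905, 0.360 and 0.530 CPM with vehicle; at 6 h it held 1.60, 1.19 and 1.72 CPM with 0.1 nM and 1.47, 1.14 and 0.890 CPM with vehicle. Its groups were apart at 18 h and close together at 6 h, with an unadjusted p of 0.000419 in the edgeR test of the difference. A larger region of this kind, chr7:25702537-25702982, held 17.3, 10.2 and 9.24 CPM with 0.1 nM at 18 h and 1.34, 0.823 and 1.71 CPM with vehicle, but 3.52, 2.86 and 3.70 CPM with 0.1 nM at 6 h and 0.735, 0.958 and 1.86 CPM with vehicle. It was called at both times, by 9.57-fold at 18 h and 2.86-fold at 6 h. Among losses, chr14:37747878-37748632 was 12.3-fold lower at 18 h and 4.17-fold lower at 6 h, where the libraries held 5.35, 3.16 and 3.45 CPM with 0.1 nM and 23.7, 14.6 and 12.3 CPM with vehicle. These regions were picked for the size of their difference between times, which is given as a description.

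Taken library by library, the gains of 18 h had a median log2 ratio to the mean of the vehicle libraries of 1.03, 0.83 and 0.98 in the 0.1 nM libraries of 6 h, and the vehicle libraries of 6 h lay between -0.08 and 0.10. For the losses these medians were -0.83 ± 0.12 with 0.1 nM and 0.01 ± 0.27 with vehicle at 6 h (SD, n = 3 each). In the 18 h libraries that chose the regions, the gains stood at 1.34 ± 0.21 with 0.1 nM and the losses at -1.32 ± 0.09. Regions not called had medians within 0.10 of 0 in every library.

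**Figure D3:**
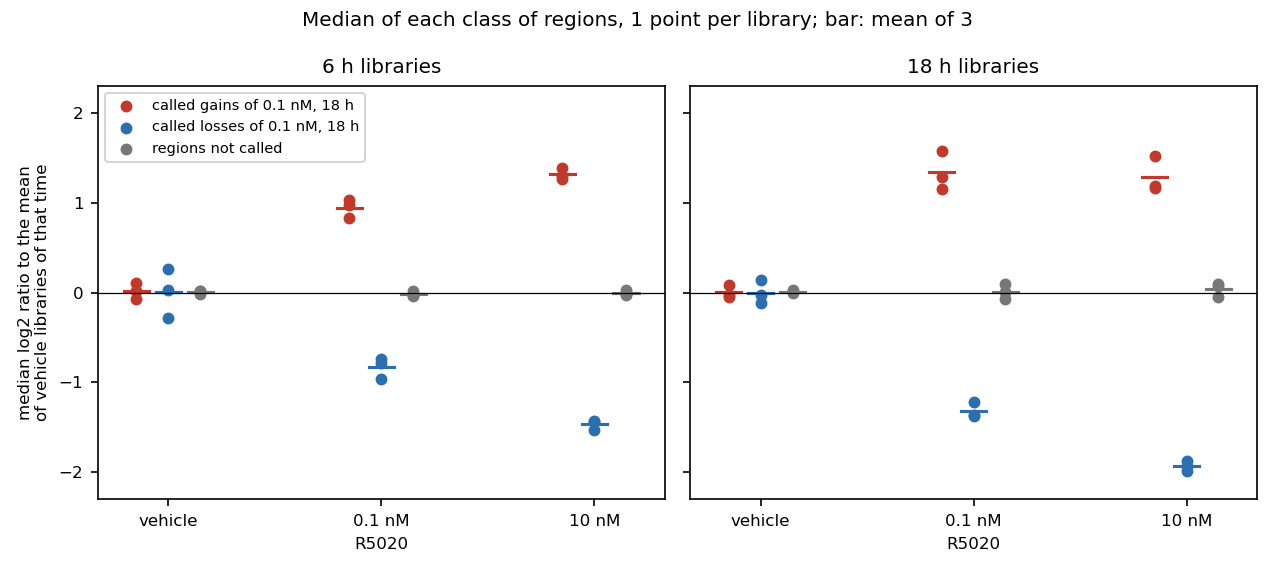
Median log2 ratio to the mean of the vehicle libraries of the same time (y axis), 1 point per library, with a bar at the mean of 3, for vehicle, 0.1 nM and 10 nM R5020 at 6 h (left) and 18 h (right). In the 6 h libraries, which did not choose the regions, the gains stand near 0.95 with 0.1 nM and 1.32 with 10 nM, and the losses near -0.83 with 0.1 nM and -1.47 with 10 nM.

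The 2 doses were compared directly on the regions that answered to the low one. At 18 h this test shares the 0.1 nM libraries that chose the regions, so the dose difference of the separate 6 h libraries is given beside it. Lost regions were on the whole lower still with 10 nM: the log2 difference of 10 nM minus 0.1 nM had a median of -0.62 at 18 h and -0.68 at 6 h, and 281 of the 923 losses (30.4%) were called lower with 10 nM at 18 h, beside 4.22% of all regions tested. At 6 h 397 of them (43.0%) were called lower with 10 nM, beside 5.25%, and 43 (4.66%) called higher, beside 15.1%. Gained regions went both ways. At 18 h 359 gains (15.6%, beside 6.67% of all regions) were called higher with 10 nM and 478 (20.7%, beside 4.22%) were called lower with 10 nM, and the median difference was -0.12. At 6 h 685 gains (29.7%, beside 15.1%) were called higher with 10 nM and 335 (14.5%, beside 5.25%) lower, and the median difference was 0.20, of the opposite sign. Leaving out a library moved some of these counts by over 1.5 times: 284 gains were called lower with 10 nM at 18 h without replicate 1 of 0.1 nM, 233 were called higher without replicate 1 of 10 nM, and at 6 h 222 were called lower without replicate 1 of 10 nM. The balance at 18 h was not firm. Without replicate 1 of 0.1 nM 334 gains were called higher, more than the 284 lower. Without replicate 2 of 10 nM 365 were called higher and 361 lower.

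The gains with less accessibility at the higher dose were mostly lower in the separate 6 h libraries as well: of the 478, 433 (90.6%) had a lower value with 10 nM at 6 h too, and 262 (54.8%) were called there, beside 5.25% of all regions tested. The median 6 h difference of all regions was itself slightly below 0, at -0.06. Of the 359 with more accessibility at 10 nM, 358 were higher at 6 h and 341 (95.0%) were called, beside 15.1% of all regions tested. One of the 12 largest gains, chr9:33430967-33431728, held 21.3, 14.0 and 12.8 CPM with 0.1 nM at 18 h and 2.07, 1.39 and 1.65 CPM with vehicle. The 10 nM libraries of 18 h held 4.60, 3.43 and 4.29 CPM and lay between the other groups, a log2 difference of 10 nM minus 0.1 nM of -1.96 at 18 h (SE 0.24, edgeR adjusted p = 2.3e-05) and -1.14 at 6 h (adjusted p = 0.00138). In the same way chr1:110391512-110392485 had 11.2, 9 and 12.3 CPM with 10 nM at 18 h, under its 0.1 nM libraries, with differences of -0.93 at 18 h and -1.19 at 6 h.

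Few regions were called in opposite directions by the 2 doses at 18 h. Of the 2307 gains, 1624 (70.4%) were called higher than vehicle with 10 nM and 30 lower. Of the 923 losses, 865 (93.7%) were called lower than vehicle with 10 nM and 1 higher. Over all 132304 regions tested, 16989 were called higher and 10002 lower. The vehicle libraries that chose the regions enter these calls, so the counts are a description. Among gains that averaged at least 1 in log2 CPM, the lowest difference of 10 nM minus 0.1 nM was at chr4:70042862-70043662, which held 10.2, 7.81 and 9.82 CPM with 0.1 nM and 3.19, 3.50 and 4.48 CPM with vehicle. With 10 nM the libraries held 1.10, 0.900 and 2.42 CPM. The order of the groups was 10 nM, vehicle, 0.1 nM from low to high with no overlap. The log2 difference of the doses was -2.72 at 18 h (edgeR adjusted p = 1.4e-05) and -2.78 at 6 h (2.22e-06). The gain itself was 2.50-fold and missed the threshold without replicate 1 of 0.1 nM (adjusted p = 0.0605, edgeR), replicate 1 of vehicle (0.0924) or replicate 2 of vehicle (0.0701). The 1 loss called higher than vehicle with 10 nM was chr10:54113668-54114217, with 1.90, 1.94 and 1.46 CPM with 0.1 nM and 4.27, 4.53 and 4.48 CPM with vehicle. With 10 nM the libraries held 14.2, 6.79 and 6.81 CPM. Its doses differed by 2.40 on the log2 scale at 18 h and 2.3 at 6 h. These regions were ranked by the dose difference at 18 h, so only the 6 h difference stands apart from their choice. At 6 h the change with 0.1 nM over vehicle was called at neither region. Its log2 fold change was 0.55 on chromosome 4 and -0.44 on chromosome 10 (edgeR adjusted p = 0.604 and 0.686). With 10 nM at 6 h the changes were -2.23 and 1.87, both called. At these regions the 2 doses were thus called in opposite directions at 18 h, while at 6 h only the 10 nM change was called. The signs of the 2 doses were opposite at 6 h as well.

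Calls lay on every chromosome from 1 to 22 and on X. The percent of tested regions called was highest on chromosome 13, at 3.49% (83 of 2377), then on chromosome 4, at 3.19% (180 of 5643), and on chromosome 1, at 2.87% (324 of 11305). Among those chromosomes it was lowest on 19, at 1.22% (47 of 3865), and 8, at 1.91% (164 of 8581), and none of the 185 regions tested on Y was called. At 6 h the order differed at the top, with 1.76% called on chromosome 21, 1.68% on 13, 1.60% on 6, 1.44% on 4 and 1.35% on 1, while chromosome 8 had 0.711% and chromosome 19 had 0.517%. The balance of directions differed too: gains were 91.5% of the calls on chromosome 22, 87.2% on 19 and 86.1% on 17, but 52.2% on chromosome 4, where 1.52% of the tested regions were lost. Neighbouring regions are not independent, so these shares carry no test.

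**Figure D4:**
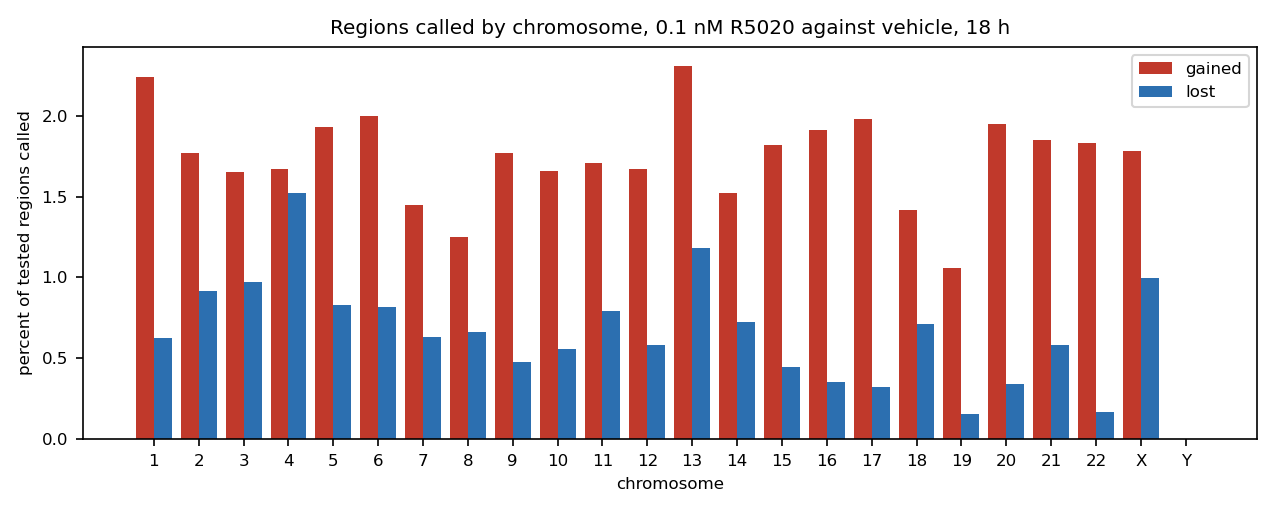
Percent of tested regions on each chromosome called as gained or as lost with 0.1 nM R5020 against vehicle at 18 h. Gains outnumber losses on every chromosome with calls, with the closest approach on chromosome 4 (94 gains and 86 losses).

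Most called regions stood alone. With gains linked when at most 100 kb apart, 1380 (59.8%) had no partner, and 411 (17.8%) fell into 116 runs of at least 3. Of the losses 725 (78.5%) stood alone and 50 (5.42%) fell into 15 runs. The nearest tested region on either side was gained as well for 286 gains (12.4%), beside 3.41% of all regions tested with a gained neighbour, and lost as well for 100 losses (10.8%), beside 1.37%. The runs below were chosen for their number of calls, and the sums over them are descriptions.

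The run with the most gains covered 222 kb, chr10:79152643-79374952, with 8 gains and no loss among 41 regions tested, 37 of which were higher with 0.1 nM. Summed over the 41 regions, the libraries held 311.5, 266.6 and 304.0 CPM with 0.1 nM at 18 h and 163.8, 168.0 and 195.1 CPM with vehicle. Its lead region, chr10:79257902-79258924, held 56.1, 40.9 and 44.6 CPM with 0.1 nM and 5.04, 5.09 and 6.42 CPM with vehicle, 8.57-fold (edgeR adjusted p = 1.02e-06). A second run lay further along the same chromosome, at chr10:79592070-79633783, where 5 of 12 regions were gained and the sums were 236.7, 196.5 and 182.7 CPM with 0.1 nM and 102.2, 97.8 and 104.2 CPM with vehicle. The sums of the first run were 1.59-fold of vehicle at 6 h and 1.67-fold at 18 h, and those of the second 2.06-fold at 6 h and 2.02-fold at 18 h.

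The densest of the 8 gain runs with the most calls was chr7:99547366-99583456, where 7 of 8 regions within 36.1 kb were gained and all 7 were called at 6 h as well. Its summed CPM was 107.2, 84.8 and 87.1 with 0.1 nM and 24.2, 22.6 and 25.8 with vehicle, 3.84-fold at 18 h and 2.90-fold at 6 h. With 10 nM the sum was 51.3 ± 6.69 CPM (SD, n = 3), under each 0.1 nM library and over each vehicle library, and 5 of the 7 gains were called lower with 10 nM than with 0.1 nM. Its lead region, chr7:99547366-99547996, held 16, 10.1 and 10.2 CPM with 0.1 nM and 1.81, 1.18 and 1.77 CPM with vehicle. It held 3.18, 2.94 and 4.01 CPM with 10 nM. The doses differed there by -1.86 on the log2 scale at 18 h and by -1.42 at 6 h (edgeR adjusted p = 0.000128 and 0.000467).

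On chromosome 6 the gained region with the most reads, named above, lay in a run of 161 kb, chr6:35535927-35696998, with 5 gains among 15 regions. The summed CPM was 275.3, 222.2 and 210.5 with 0.1 nM and 127.9, 117.0 and 118.2 with vehicle, 1.95-fold at 18 h and 2.18-fold at 6 h. On chromosome 11 the run at chr11:34582088-34848126 summed to 737.0, 601.6 and 511.8 CPM with 0.1 nM and 433.0, 417.9 and 411.2 CPM with vehicle, but to 366.0 ± 70.4 CPM with 10 nM. At 6 h its sums overlapped between 0.1 nM, with 532.4 to 657.8 CPM, and vehicle, with 416.7 to 560.9 CPM. Of the 8 gain runs with the most calls, the sums did not overlap in 7 at 18 h and in 4 at 6 h.

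Losses formed smaller runs. The one with the most calls, chr14:44118659-44248709, held 5 losses among 9 regions, and its sums were 24.9, 21.5 and 30.1 CPM with 0.1 nM and 71.2, 56.9 and 64.5 CPM with vehicle, 2.52-fold lower at 18 h and 2.42-fold lower at 6 h. At chr4:115228039-115248089 all 3 regions tested within 20 kb were lost at both times, with sums of 3.54, 2.90 and 2.92 CPM with 0.1 nM and 16, 12.7 and 9.43 CPM with vehicle. The call of its lead region, chr4:115228039-115228508, missed the threshold without replicate 1 or 2 of either group (adjusted p from 0.126 to 0.245, edgeR). Of the 6 loss runs with the most calls, the sums of 0.1 nM lay under those of vehicle in all 6 at 18 h and in all 6 at 6 h.

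**Figure D5:**
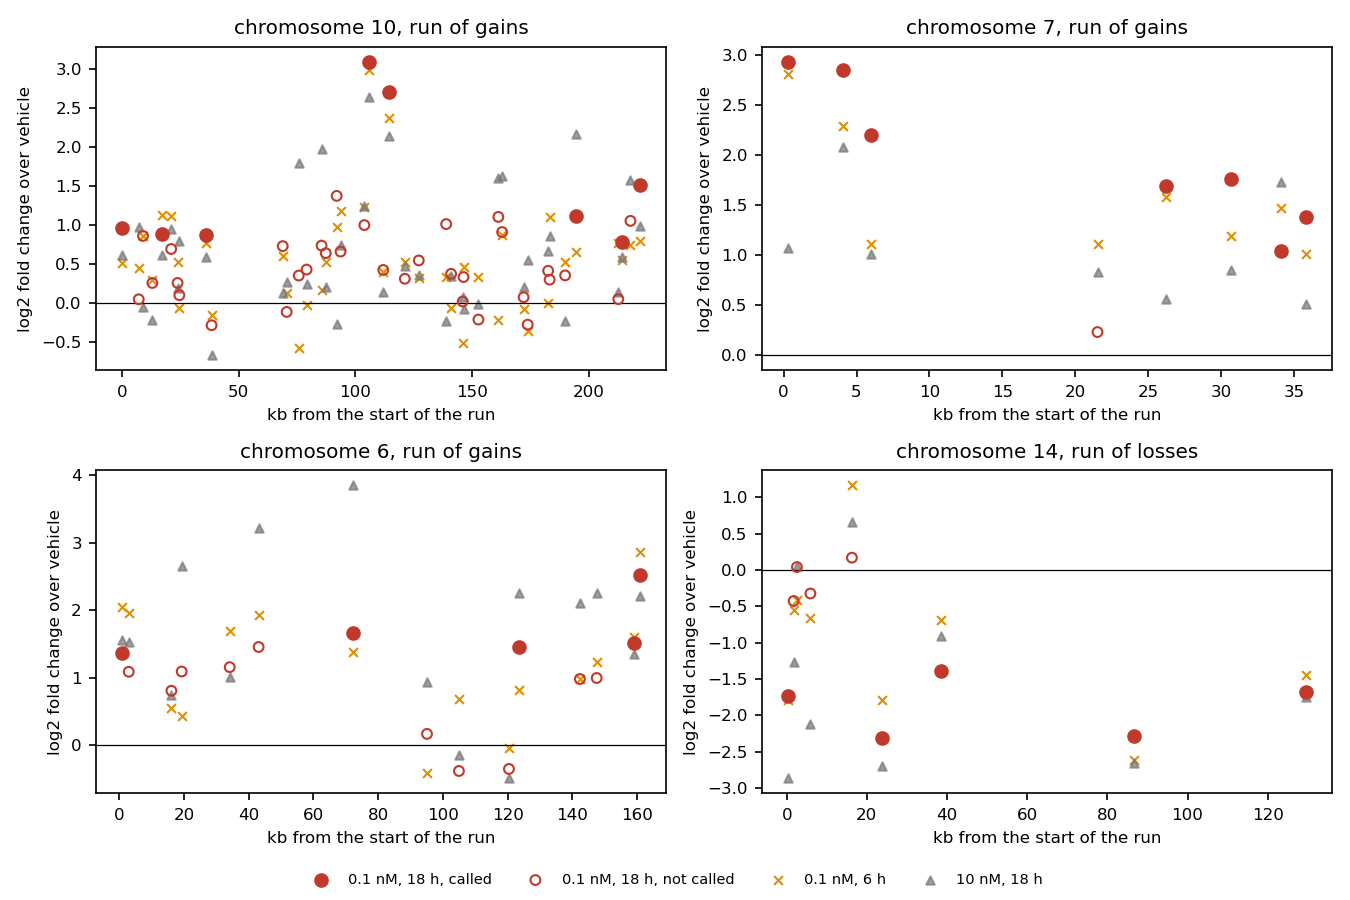
Log2 fold change over vehicle (y axis) of each region tested in 4 runs, by distance in kb from the start of the run (x axis): 0.1 nM at 18 h (filled where called, open where not), 0.1 nM at 6 h (crosses) and 10 nM at 18 h (triangles). On chromosome 7 the 7 called gains lie above 1, and on chromosome 14 the 5 called losses lie below -1.39.

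Summed over 1 Mb bins the response was small. Of 2890 bins tested, 1 was higher with 0.1 nM at 18 h (0.0346%) and 13 were lower (0.45%); at 6 h 0 were higher (0%, with 32 at an unadjusted p under 0.05 in edgeR) and 5 were lower (0.173%), all 5 among the 13. The bin of chromosome 2 from 35000001 to 36000000 had 10 regions, all lower with 0.1 nM and 5 of them called, and it held 25, 23.4 and 17.4 CPM with 0.1 nM and 63.3, 56.5 and 43.7 CPM with vehicle, 2.47-fold lower (edgeR adjusted p = 0.00884). The bin of chromosome 13 from 56000001 to 57000000 held 4.01, 2.90 and 3.11 CPM with 0.1 nM and 12.3, 8.64 and 11.1 CPM with vehicle, 3.14-fold lower, over 4 regions. The one higher bin, on chromosome 9 from 24000001 to 25000000, held 13, 9.19 and 9.14 CPM with 0.1 nM and 4.87, 4.79 and 3.83 CPM with vehicle. Bin calls were not firm: no fit that lacked a library called a higher bin, and the lower ones numbered 4, 0 and 4 without replicates 1, 2 and 3 of 0.1 nM and 0, 5 and 7 without replicates 1, 2 and 3 of vehicle. At least 1 gain lay in 1245 bins and at least 1 loss in 703, with 302 bins holding both.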

How the data were processed

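Omni-ATAC-seq of T47D cells was deposited by the authors as raw read counts per region, 1 table of all 18 libraries with no normalization. Per the submitters' processing notes, BWA and MACS2 were used and the build was hg19. Not given in the sources used here are versions, read filters, any shift for Tn5 insertion and how the region list was made. The regions come from T47D themselves, so a site open in few libraries can be missing, and whether starts count from 0 or 1 is not stated.

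Columns were matched to samples by title. From the deposited counts, edgeR 4.0.16 in R 4.3.3 kept 132304 regions with filterByExpr (minimum count 10, minimum total 15), left out 300, scaled libraries by TMM and fitted all 18 libraries with a mean per group (12 residual degrees of freedom, glmQLFTest, Benjamini-Hochberg adjustment over all regions, threshold 0.05). SE is the log2 fold change over the square root of F. CPM values come from edgeR's cpm, and log2 CPM used a prior count of 2. Bins of 1 Mb were tested on summed counts. Replicates of a group differed beyond sampling noise (chi-square per degree of freedom 3.28 to 27.8), so none was counted as a repeat. The steps were tested on simulated counts.

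Named regions were the 12 largest gains and losses that averaged at least 1 in log2 CPM over all libraries and whose groups do not overlap, the 4 called regions in each direction with the most reads, the leads of the runs with the most calls, and those with the most extreme difference between times or doses. Deviations of same-numbered 0.1 nM and 10 nM libraries correlated at 0.60, 0.19 and 0.45 at 18 h. At 6 h the values were -0.17, -0.013 and 0.25. Replicate 2 of 10 nM at 18 h correlated higher with replicate 3 of 0.1 nM, at 0.23, than with its own number. From the data and not the labels, the 18 h numbers were taken as a possible pairing of the doses. That pairing entered only the fit with the replicate block. The dose counts and p-values in the Results come from fits without it. In each 18 h group, counts were highest in replicate 1 and lowest in replicate 3. Shares held by the 5000 top regions had the same order. Whether depth or share gave rise to the correlations was not tested. The comparison, lists and rules were chosen with earlier results of these data known. Alternatives were RLE size factors, no filter, DESeq2, a fit of the compared groups only, a replicate block, a covariate, stricter thresholds, other bin widths and run gaps, and leaving out each library.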

Additional observations from a re-analysis of the deposited data

How the results depend on the processing

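No named region changed the sign of its 18 h response to 0.1 nM in any alternative setting. The balance of gains called higher or lower with 10 nM at 18 h did turn without replicate 1 of 0.1 nM or replicate 2 of 10 nM. Of the 62 named regions, 43 were called in all 12 settings and 19 missed the threshold in at least 1. Gains numbered 4637 with the top-region share as a covariate and 1017 at an adjusted p under 0.01, and 960 to 2373 without 1 library. Losses numbered 1730 with the covariate and 349 at 0.01, and 336 to 682 without 1 library. Gains called at both times numbered 1985 with the covariate and 429 at 0.01, and 480 to 903 without 1 library. Losses called at both times numbered 390 by DESeq2, 136 with the compared groups only, 532 with the covariate and 74 at 0.01, and 65 to 310 without 1 library. Lower bins numbered 8 with RLE factors, 97 with the covariate, 43 at 0.5 Mb and 1 at 2 Mb, and 0 to 7 without 1 library. Higher bins numbered 71 with the covariate, 14 at 0.5 Mb and 0 at 2 Mb, and 0 to 0 without 1 library. Gains in runs numbered 244 at 50 kb and 652 at 200 kb, and losses in runs 24 and 96. The cause of these shifts was not tested. No alternative called a difference between times.

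The labels give the groups the same replicate numbers. Deviations of same-numbered 0.1 nM and vehicle libraries correlated at 0.45, 0.098 and 0.46 across regions at 18 h, where every library correlated best with its own number, and at 0.46, 0.0012 and -0.098 at 6 h. Since not every value is over 0.1, the numbers were not taken as a pairing of 0.1 nM with vehicle. A fit with the replicate block called 3542 gains and 1732 losses, 1413 gains and 503 losses at both times, and 7 higher and 29 lower bins. For the doses, where the block and the fits lacking a library were chosen after seeing the data, the block called 428 gains higher and 584 lower with 10 nM at 18 h, and 27 losses higher and 348 lower. It moved no dose count, at 18 h or 6 h, by over 1.5 times and changed no 18 h dose call printed for a single region. Without 1 library, gains called higher with 10 nM numbered 233 to 365 at 18 h and 573 to 628 at 6 h, and gains called lower 284 to 508 and 222 to 302. Losses called higher numbered 11 to 22 and 30 to 37, and losses called lower 188 to 276 and 302 to 375.

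In simulated counts, at the depth and number of libraries here and the fit's estimate of spread, 11 of 100 regions changed 2-fold were called. The weakest regions were not among those changed. Far fewer regions were changed there than were called in the data, so the adjusted threshold was stricter. The part of depth alone was not tested.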
